A study of Mus musculus with 6 samples.

Results

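The intestine was examined 3 h after 8.5 Gy in 1 pair of samples, an irradiated intestine and an untreated intestine, which are 2 of the 6 samples of a series that also covers liver and brain. Every probe of the array with an intensity in both columns was taken, which gave 29781 of the 29922 probes, and the log2 change is the log2 of the irradiated over the untreated intensity. Of these probes, 20958 carry a gene symbol, and the mean over the probes of a symbol gave a value for 16595 of the 16637 genes on the array, 13040 of them read by 1 probe. The irradiated group consisted of male FVB mice exposed over the whole body to X-rays, and the untreated group of mice of the same strain and transgene without exposure. All of them were 6 to 8 weeks old and carried a luciferase transgene under a promoter with NF-κB elements, so that neither group is wild type. Total RNA of intestine, with no segment given, was labelled with Cy5 and hybridized to an oligonucleotide array of 1 colour, which gave an intensity per spot, not log transformed. The study's methods name replicate mice, but there is 1 column per organ and treatment, and whether a column stands for a single array or a summary is not stated. With 1 sample a side no test and no error can be given, and every change below is a difference between those 2 samples.

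Intestinal epithelium is renewed from stem cells in the crypts, whose dividing daughters move up the villus as absorptive enterocytes, mucus-secreting goblet cells and hormone-secreting enteroendocrine cells, while Paneth cells stay at the crypt base and release antimicrobial proteins. Ionizing radiation breaks DNA, and the kinase cascade that senses the breaks stabilizes the transcription factor p53. Its targets halt the cell cycle, feed back on p53 itself, aid repair and metabolism, or promote cell death, and dividing crypt cells and lymphocytes are among the most sensitive cells of the body.

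A gene was called higher or lower where it differed by 1.8-fold or more, the threshold of the study. Of 16595 genes, 285 were higher (1.72%) and 463 lower (2.79%), and of 29781 probes, 503 were higher (1.69%) and 806 lower (2.71%). The median gene had a log2 change of 0.02, and the central range from the 5th to the 95th percentile ran from -0.61 to 0.58. The calls followed brightness. With the genes split by mean intensity into 4 bins of about equal size, none of 4156 passed the threshold in the dimmest bin, against 0.241% higher and 0.459% lower in the second, 1.25% and 2.43% in the third, and 5.37% and 8.27% in the brightest, which began at an intensity of 148. A list of bright genes therefore holds more calls than a list of dim ones. Each count of calls in a list below stands against 1.72% higher and 2.79% lower over all genes. By 4-fold or more, 11 genes were higher and 35 lower. Most calls rested on a single probe, 266 of the 285 and 435 of the 463. Where a gene had 2 or more probes and at least 1 was past the threshold, all of them were in 5 of 149 genes for higher and in 1 of 177 for lower. The median intensity was 64 in the irradiated and 64.5 in the untreated intestine. No fold is given where either value lies below the median of its sample.

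**Figure D1:**
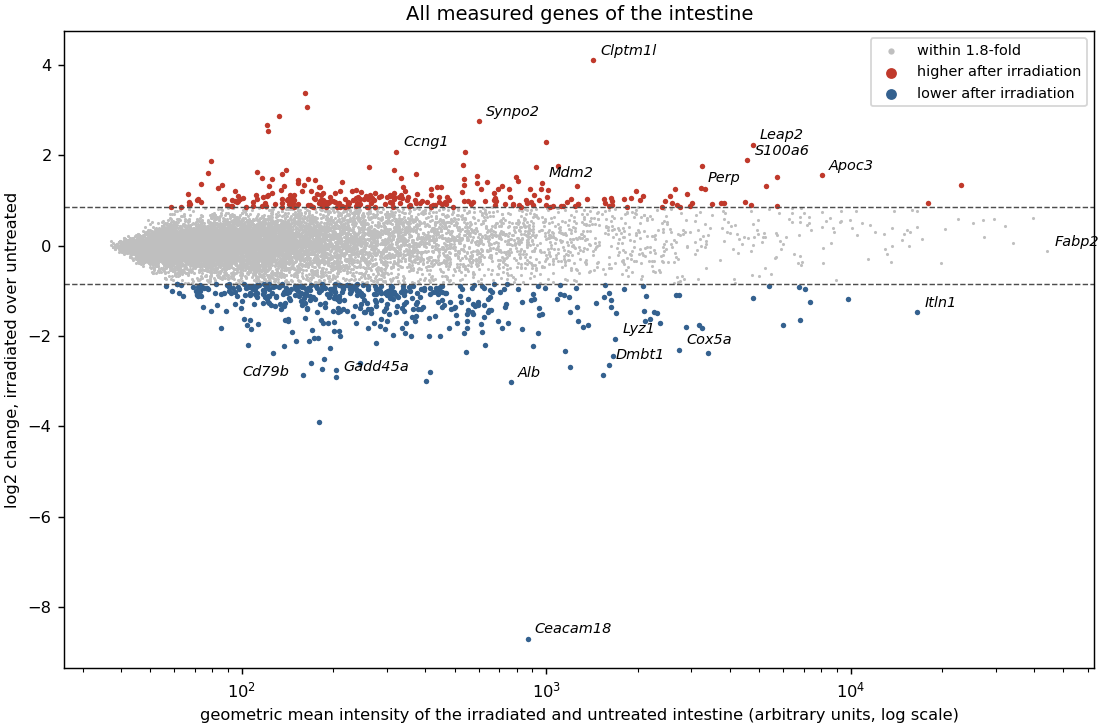
The log2 change of each of the 16595 genes (irradiated over untreated, vertical axis) is plotted against its mean intensity in the 2 samples (log scale, horizontal axis), with dashed lines at 1.8-fold, higher genes in red and lower genes in blue. Calls are absent at the dim end, and Clptm1l (4.11) and Ceacam18, whose irradiated intensity of 42.5 is near the lowest of the array, mark the ends of the range.

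The labelled organ was checked against genes of its cell types. Fabp2, the fatty acid binding protein of enterocytes, had an intensity of 42386 in the irradiated and 46247 in the untreated intestine, and it stood at percentile 99.96 and 99.98 of the 2 columns. Tff3 and Agr2, secreted by goblet cells, stood at percentiles 99.89 and 99.78 in the irradiated and 99.81 and 99.72 in the untreated intestine. In liver and brain the highest percentile of either gene was 58.3. Fabp2 was bright in liver too, at percentile 98.39 in the irradiated and 98.58 in the untreated sample. The liver genes Alb and Mup3 stood at percentiles 87.97 and 97.60 in the irradiated and 98.30 and 99.44 in the untreated intestine. Markers of single segments were chosen after their values were seen, and those of the ileum were dim. The ileal bile acid binding protein gene Fabp6 had intensities of 64 and 50.5 in the irradiated and untreated intestine, the bile acid transporter gene Slc10a2 had 43.5 in both, and the hormone gene Fgf15 had 61 and 70, all near the median of the array or below it. Of 7 measured genes typical of the proximal small intestine, 1 was higher and none lower, and of 11 typical of the colon, none was higher and 3 lower, as given with the transporters.

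The largest differences upward among genes at or above the median in both samples were in genes with no shared role. Clptm1l, a membrane protein of the endoplasmic reticulum, had 5897.5 in the irradiated and 342.5 in the untreated intestine (17.2-fold higher). Synpo2, an actin-binding protein of muscle, was read by 2 probes, at 2219.5 and 1094.5 in the irradiated intestine against 132.5 and 404.75 in the untreated one. Its probes both passed the threshold, although by unequal amounts. Pcx, the pyruvate carboxylase, had 2210 and 451 (4.90-fold), and Leap2, a secreted peptide that blocks the ghrelin receptor, had 10342 and 2203 (4.69-fold). S100a6, a calcium-binding protein, had 8832 and 2376 (3.72-fold), and Afp, the fetal counterpart of albumin, had 993 and 287.5 (3.45-fold). The other genes of this set were Prr13 (3.40-fold), the steroid dehydrogenase Hsd17b6 (3.37-fold), Dennd10 and Grina (3.36-fold each), Zfp64 (3.19-fold, from 1 of its 2 probes) and the p53 target Ccng1. In liver, Clptm1l (7.26-fold), Pcx (12.6-fold), S100a6 (2.28-fold) and Ccng1 were also higher, and the others of this set were within the threshold. Pcx was higher in brain too (1.99-fold). Over all genes, 27 of the 285 higher in the intestine were also higher in liver, where 1.51% of all genes were higher.

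Downward, the largest difference among genes at or above the median in both samples was in Alb, serum albumin, at 268 in the irradiated and 2175 in the untreated intestine (8.12-fold lower). The zinc finger gene Zfp287 had 142.5 and 1135 (7.96-fold lower), and Gadd45a, a p53 target, is given below. Dmbt1, a scavenger receptor protein secreted onto mucosal surfaces, had 645 and 3999 (6.20-fold lower). Cd79b, a chain of the B cell receptor, had 71 and 471.5 (6.64-fold lower). The rest of this set spans the solute carrier Slc10a7 (7.29-fold), the lectin receptor Clec4a1 (6.96-fold), 1700024G13Rik (6.79-fold), Daam2 of Wnt signalling (6.48-fold), the cytochrome Cyp2f2 (6.07-fold), the muscarinic receptor Chrm4 (6.05-fold) and the chemerin receptor Cmklr1 (5.71-fold). Each of these was read by 1 probe. Alb, Zfp287, Slc10a7, Clec4a1, 1700024G13Rik, Daam2, Cyp2f2 and Chrm4 were also lower by 1.8-fold or more in brain. Cmklr1, Cd79b and Gadd45a were within the threshold there, and Dmbt1 had no value. In liver, 1700024G13Rik and Chrm4 were lower too, whereas Slc10a7 and Daam2 were higher. Over all genes, 32 of the 463 lower in the intestine were also lower in brain, where 0.919% of all genes were lower. Besides Synpo2, the genes with all probes past the threshold were Ccng1, Litaf, Abhd2 and Gpc4 upward and Bag6 downward. Litaf, a lysosomal membrane protein gene that p53 can induce, had 244 and 1286 in the irradiated intestine against 64 and 623 in the untreated one. Bag6, a chaperone of tail-anchored proteins, had 171.5 and 247.5 against 407.5 and 517. The hydrolase gene Abhd2 had 237.5 and 189.5 against 107.5 and 89, and the glypican gene Gpc4 had 265 and 231 against 136.5 and 108.5. In each of these genes both probes lay on the same side.

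Of 32 measured p53 targets that act in arrest, feedback, metabolism and repair, 8 were higher and 1 lower, with a median log2 change of 0.14, against 1.72% higher and 2.79% lower over all genes. Among the genes of arrest, 3 of 12 were higher. Cdkn1a, the p21 inhibitor of cyclin-dependent kinases, had 1315.75 and 139.5 at its 2 probes in the irradiated intestine and 546 and 88 in the untreated one (1.95-fold higher as a mean). Only its brighter probe passed the threshold alone. Btg2, an antiproliferative gene, had 1993.5 and 798 (2.50-fold higher). Plk2, a polo-like kinase, had 234.75 and 78 (3.01-fold higher). The genes that feed back on p53 held 4 higher genes of 9. Ccng1, which encodes cyclin G1, had 1597 and 273.5 at its 2 probes in the irradiated intestine against 357 and 68.5 in the untreated one (4.23-fold). Mdm2, the ubiquitin ligase that degrades p53, had 1568 and 596.5 (2.63-fold higher). Zmat3, a zinc finger protein, had 134.5 and 67.5 (1.99-fold higher), and Phlda3, an inhibitor of Akt, had 135.5 in the irradiated intestine against 44.5, near the array's floor, in the untreated one. Among 11 genes of metabolism and repair, Polk, a DNA polymerase that copies past lesions, was higher, at 160.5 and 79 (2.03-fold). The stress-induced sestrin Sesn2 had 118 and 73 and the nucleotide excision gene Xpc 90.5 and 85.9, both within the threshold.

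The exception was Gadd45a, a growth arrest gene that DNA damage commonly induces, with 74.5 in the irradiated and 557 in the untreated intestine (7.47-fold lower), from 1 probe. Its relatives Gadd45b (115 and 129) and Gadd45g (84.5 and 103) were within the threshold. With 50 added to both intensities the calls of Cdkn1a, Zmat3 and Polk were lost.

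Targets that promote cell death were called at 2 of 16, with a median of 0.03. Perp, a membrane protein of desmosomes, was among the brighter p53 targets, at 5014.5 in the irradiated and 2065 in the untreated intestine (2.43-fold higher). Zfp385a had 329.5 and 163 (2.02-fold higher, a call lost with 50 added). It is a zinc finger protein that directs p53 towards arrest genes, so its place on this list is doubtful. None of the 6 mitochondrial members was past the threshold. Bbc3, which encodes Puma, had 75.5 and 67.5, and the adaptor of the apoptosome Apaf1 had means of 169 and 217. The 3 probes of Pmaip1, which encodes Noxa, differed, since the brightest had 1430 and 948.5 and the other two had 48 and 49 against 59 and 66.5. The death receptor gene Fas had 51.5 and 67.5, and the ectodysplasin receptor gene Eda2r had 265 and 123 at its brighter probe but 61 and 59 at the other. No value was found under the symbols Bax and Trp53aip1, and 8823 of the probes with a value carry no symbol. The study itself reports Bax as higher in the irradiated intestine, so the mitochondrial members above leave out a main one.

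**Figure D2:**
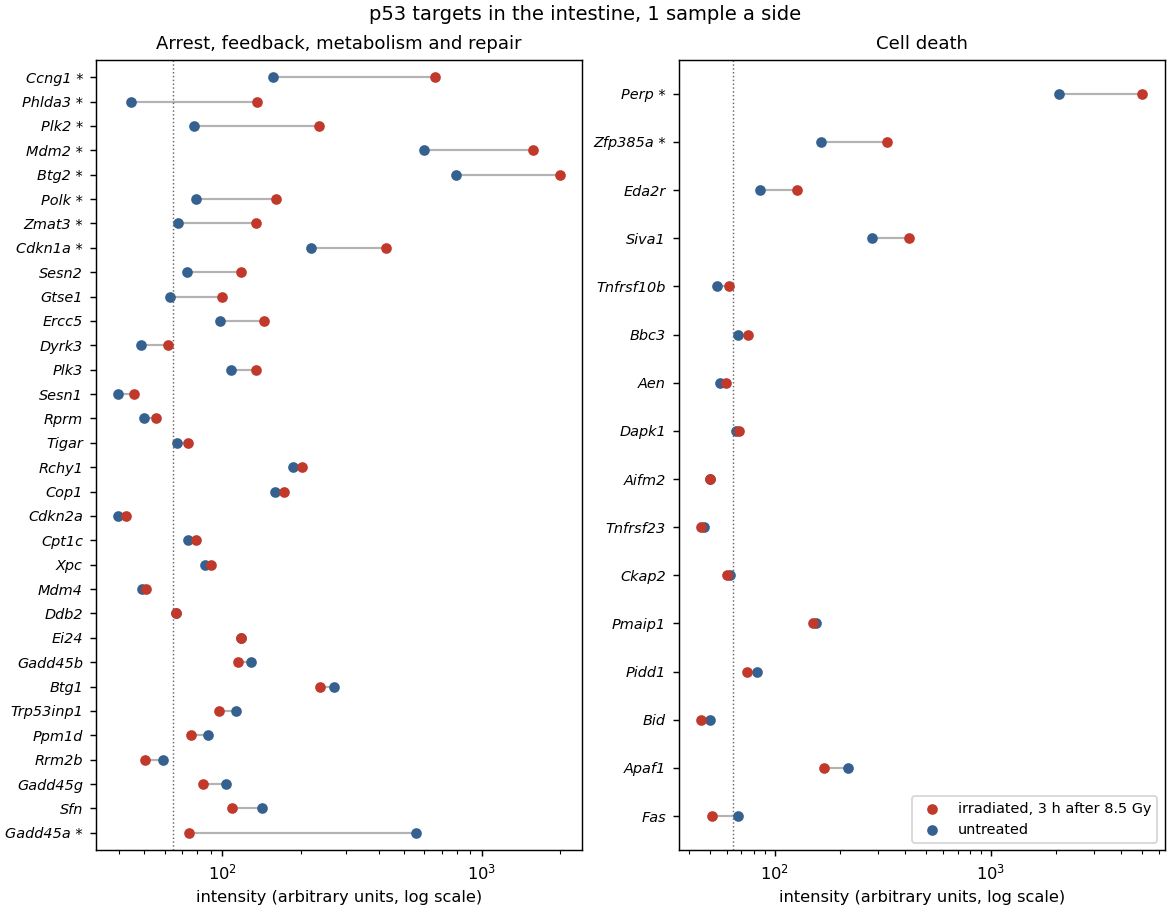
Intensity (log scale, horizontal axis) of each measured p53 target in the irradiated (red) and untreated (blue) intestine, 1 sample a side, sorted by log2 change, with an asterisk at genes past 1.8-fold and a dotted line at the median of the untreated sample. Of the 32 genes at left 8 were higher, with Gadd45a alone far to the other side, and of the 16 at right Perp and Zfp385a were higher.

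The sequence before the start of these genes is shown for the targets past the threshold whose window holds a p53 site motif, the short element, alike on both strands, that a pair of p53 molecules binds, since p53 binding is the feature that defines the list. RefSeq windows of GRCm38.p6 were searched over the 250 bases before the start. The motif was found in 996 of 13309 measured genes with a window (7.48%), in 9 of 27 targets of arrest and feedback (33.3%) and in 3 of 13 targets of cell death (23.1%). Of the 8 arrest and feedback targets past the threshold that have a window, 5 hold it, Gadd45a included. Over the whole array it was present in 17 of 225 higher genes (7.56%) and 35 of 370 lower genes (9.46%). Matches are in capitals. The Cdkn1a stretch is chr17:29090881-29090962 on the plus strand and holds 2 matches, and those of Ccng1 (chr11:40755437-40755496), Mdm2 (chr10:117710910-117710969), Polk (chr13:96519384-96519437) and Gadd45a (chr6:67037413-67037472), all on the minus strand, hold 1 each.
Cdkn1a: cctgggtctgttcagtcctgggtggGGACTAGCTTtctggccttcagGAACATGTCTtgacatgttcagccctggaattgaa
Ccng1: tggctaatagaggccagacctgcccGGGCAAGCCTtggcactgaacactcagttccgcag
Mdm2: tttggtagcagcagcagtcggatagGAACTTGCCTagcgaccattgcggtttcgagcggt
Polk: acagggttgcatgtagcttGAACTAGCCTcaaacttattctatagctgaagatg
Gadd45a: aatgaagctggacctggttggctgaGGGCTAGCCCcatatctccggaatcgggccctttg
The matches of Cdkn1a begin 73 bases before its start, and that of Gadd45a begins 40 bases before it. A match is a description of the letters and not of binding.

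Of 37 mitotic genes measured, 4 were lower, none was higher and 33 were within the threshold, against 2.79% lower and 1.72% higher over all genes. Their median log2 change was -0.38, against 0.02 over all genes. Ccna2, which encodes cyclin A2, had 198.5 in the irradiated and 385.5 in the untreated intestine (1.94-fold lower, a call lost with 50 added). Ect2, an exchange factor that the cleavage furrow needs, had 117 and 300 (2.56-fold lower). Ccnb2, which encodes cyclin B2, had 60 and 188.5, and Top2a, the topoisomerase that untangles chromosomes, had 58 and 179. In both genes the irradiated value lay below the median of the array. The proliferation antigen gene Mki67 had 3 probes, at 108.5, 68.5 and 63 in the irradiated intestine against 258, 137.5 and 58 in the untreated one, so that the pair of brighter probes was lower and the dimmest was not. All 16 spindle and kinetochore genes stayed within the threshold, although their median was -0.42.

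Of 43 genes of DNA replication and nucleotide supply, none was higher and 4 lower, and the median was -0.29. Fen1, which trims the flaps of Okazaki fragments, had 102 and 264 (2.59-fold lower), Rpa3, of the single-strand binding complex, had 220 and 484.5 (2.20-fold lower), and Mcm6, of the replicative helicase, had 217.5 and 441.5 (2.03-fold lower). The nucleoside kinase gene Dck rested on 1 of its probes, at 2024 and 8756, while the other had 50 and 48. The brightest gene of the list, the sliding clamp Pcna, had 2072 and 2146.5. The G1 cyclins and growth regulators gave no call among 30 genes, and the list of crypt stem cell and Wnt genes gave 1 among 45, Cdca7, a Myc-responsive gene, at 111.5 and 361 (3.24-fold lower). The stem cell gene Lgr5 had 46.5 in both samples and is dim in this RNA. In bulk tissue, fewer cells of a type and less RNA per cell cannot be told apart.

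The CCAAT box, which many cell cycle promoters carry, is shown for the mitotic genes with the lowest values. CCAAT was searched on both strands of the same 250 bases and was present in 23 of 31 mitotic genes with a window (74.2%), against 39.1% of all measured genes, 90 of 225 higher genes (40.0%) and 171 of 370 lower genes (46.2%). Capitals mark CCAAT or its complement ATTGG. Both stretches are on the minus strand, at chr9:70421555-70421666 for Ccnb2 with 3 boxes and at chr11:99024218-99024439 for Top2a with 6.
Ccnb2: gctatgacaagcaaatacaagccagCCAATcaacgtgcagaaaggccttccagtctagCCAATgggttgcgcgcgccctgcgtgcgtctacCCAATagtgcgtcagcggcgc
Top2a: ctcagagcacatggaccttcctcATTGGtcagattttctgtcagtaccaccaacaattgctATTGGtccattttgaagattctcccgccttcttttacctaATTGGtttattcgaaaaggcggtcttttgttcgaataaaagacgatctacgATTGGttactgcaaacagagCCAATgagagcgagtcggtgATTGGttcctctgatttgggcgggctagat

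Of 48 genes of DNA damage sensing and repair, none was higher and 2 lower, against 1.72% and 2.79% of all genes. They were the break sensor Nbn (154 and 299, 1.94-fold lower) and the checkpoint clamp gene Rad9a (382 and 714, 1.87-fold lower), both lost with 50 added. Among 19 caspases and adaptors only Casp8, the initiator of death receptor signalling, was past the threshold, at 121 and 291.5 (2.41-fold lower). Among 24 Bcl2 family genes and inhibitors of apoptosis only the BH3-only gene Bad was, at 418 and 196.5 (2.13-fold higher). Bax was not among the 24.

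**Figure D3:**
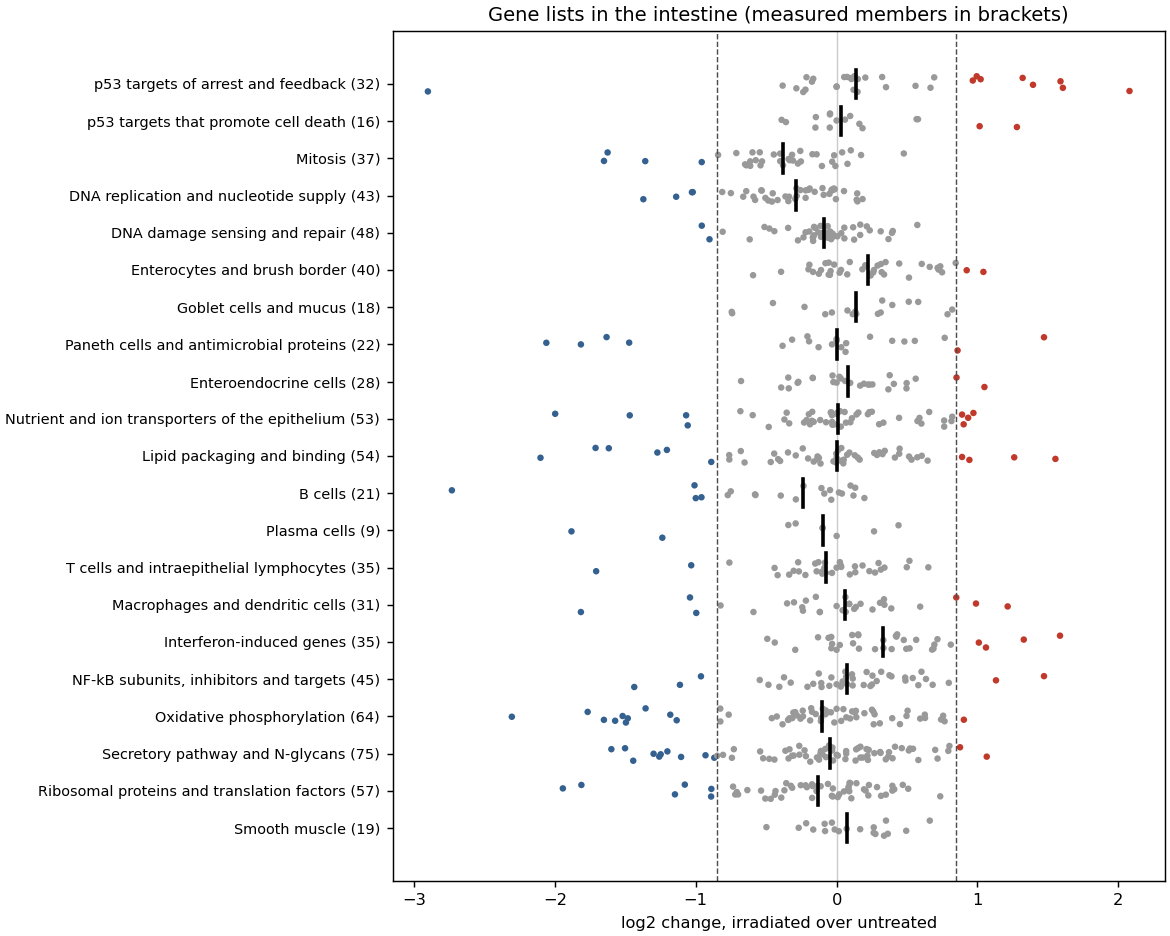
Log2 change (irradiated over untreated) of every measured member of 21 gene lists, 1 point a gene, with red points higher and blue points lower by 1.8-fold or more, black bars at list medians and dashed lines at 1.8-fold. Mitosis (median -0.38) and replication (-0.29) hold blue calls and no red ones, and interferon-induced genes (0.33) and p53 arrest targets hold mostly red ones.

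Of 40 genes of enterocytes and the brush border, 2 were higher and none lower, against 1.72% and 2.79% of all genes, with a median of 0.23. At or above the median in both samples were 36 of the 40, and the brightest bin of genes held 5.37% higher. Krt18, a keratin of simple epithelia, had 1727 in the irradiated and 838.5 in the untreated intestine (2.06-fold higher), and the brush border protease gene Mep1a had 211.5 and 111.5 (1.90-fold higher, lost with 50 added). Other bright members lay closer together, such as Fabp1 (37382 and 27470), Krt20 (11048 and 7737), Krt8 (16319 and 13629) and the villus actin bundler Vil1 (4160.5 and 2476). No goblet cell gene among 18 was past the threshold, and the median was 0.14. Tff3 had 27470 and 18385, Agr2 17490 and 14077, Zg16 11616 and 8832 and Spink4 12614 and 13338. Muc2, the main gut mucin, had 4 probes of unequal brightness, and the brightest had 4070.5 and 2326. Among 28 enteroendocrine genes, 2 were higher and none lower, and these were the hormone genes Sst (978 and 472.5, 2.07-fold higher) and Nts (1114 and 617.5). The Nts call was lost with quantile normalization, with the intensity trend removed and with 50 added.

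Paneth cell products were divided. Of 7 Paneth cell genes 3 were lower, namely lysozyme Lyz1 (826 and 3446, 4.17-fold lower), its close relative Lyz2 (256 and 901, 3.52-fold lower) and the lectin gene Itln1 (9925 and 27545, 2.78-fold lower). Lyz1 and Lyz2 are near-identical genes whose probes may read each other, and Lyz2 is also a macrophage gene. The phospholipase gene Pla2g2a (7120.5 and 9290), the protease gene Mmp7 (6087 and 6971) and Ang (4510 and 4928) differed little. No value was found under the symbols of the alpha-defensins on the list. Of 15 antimicrobial genes of the wider epithelium, Lcn2, the siderophore-binding lipocalin, was higher (209.5 and 75.5, 2.77-fold), as was Reg1 (664 and 366, 1.81-fold, lost under 3 alternatives), while the lectin gene Reg3a was lower (1245.5 and 3863.5, 3.10-fold). Reg3g, a related lectin, had 6209.5 and 5267.

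Of 53 transporters, 4 were higher and 4 lower, against 1.72% and 2.79% of all genes, and the median was 0.01. The 4 lower genes were among the 20 ion and water carriers, of which the others were within the threshold, with a median of -0.04 for the 20. Lower were Kcne3, a subunit of the basolateral potassium channel (179.5 in the irradiated and 717 in the untreated intestine, 3.99-fold), Cftr, the apical chloride channel (193.5 and 535.5, 2.77-fold), Slc26a3, the chloride and bicarbonate exchanger (627 and 1315, 2.10-fold), and the water channel gene Aqp8 (198.5 and 413, 2.08-fold). Slc26a3 and Aqp8 are prominent in the colon, as is the carbonic anhydrase Car4 (368 and 923.5, 2.51-fold lower), whereas the colonic genes Car1, Hoxd13 and Fxyd4 were at 42.5 to 43.5 in both samples. The part of a difference in the segment sampled was not tested. Higher were 1 of 7 sugar carriers, 2 of 12 amino acid and peptide carriers and 1 of 12 metal and vitamin carriers, namely the fructose transporter Slc2a5 (1639.5 and 836, 1.96-fold), the vitamin transporter Slc5a6 (288.5 and 151, 1.91-fold, lost with 50 added), the amino acid transporter chain Slc3a2 (6427 and 3439.5, 1.87-fold) and the neutral amino acid transporter Slc6a19 (1060.5 and 572, 1.85-fold). Among 47 genes of cell junctions, 2 were higher, the catenin Ctnna1 (1942.5 and 956.5, 2.03-fold) and the plakophilin Pkp3 (480.5 and 261, 1.84-fold, lost under 3 alternatives), and 1 lower, the tight junction gene Cldn3 (1354 and 3757.5, 2.78-fold).

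Genes of lipid handling were called in both directions. Among 54 genes of lipid packaging and binding, 4 were higher and 6 lower, against 1.72% and 2.79% of all genes, with a median of 0.01. The 13 genes of fatty acid synthesis among them had 2 lower, none higher and a median of -0.40. Apoc3, an apolipoprotein of triglyceride-rich particles, had 13784 in the irradiated and 4696.5 in the untreated intestine (2.94-fold higher). The acyltransferases of triglyceride synthesis Dgat2 (1078.5 and 450, 2.40-fold) and Dgat1 (1106 and 596.5, 1.85-fold) were higher. The lipid droplet gene Cideb (80 and 343.5, 4.29-fold), the acyltransferase Agpat2 (102 and 334, 3.27-fold) and the desaturase Scd2 (300 and 691.5, 2.31-fold) were lower. The bright apolipoproteins Apoa1 (34795 and 33592) and Apoa4 (13523 and 9917) lay within the threshold. Of 16 bile acid genes the conjugating enzyme Baat alone was called, at 514.5 and 2590.5 (5.04-fold lower).

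**Figure D4:**
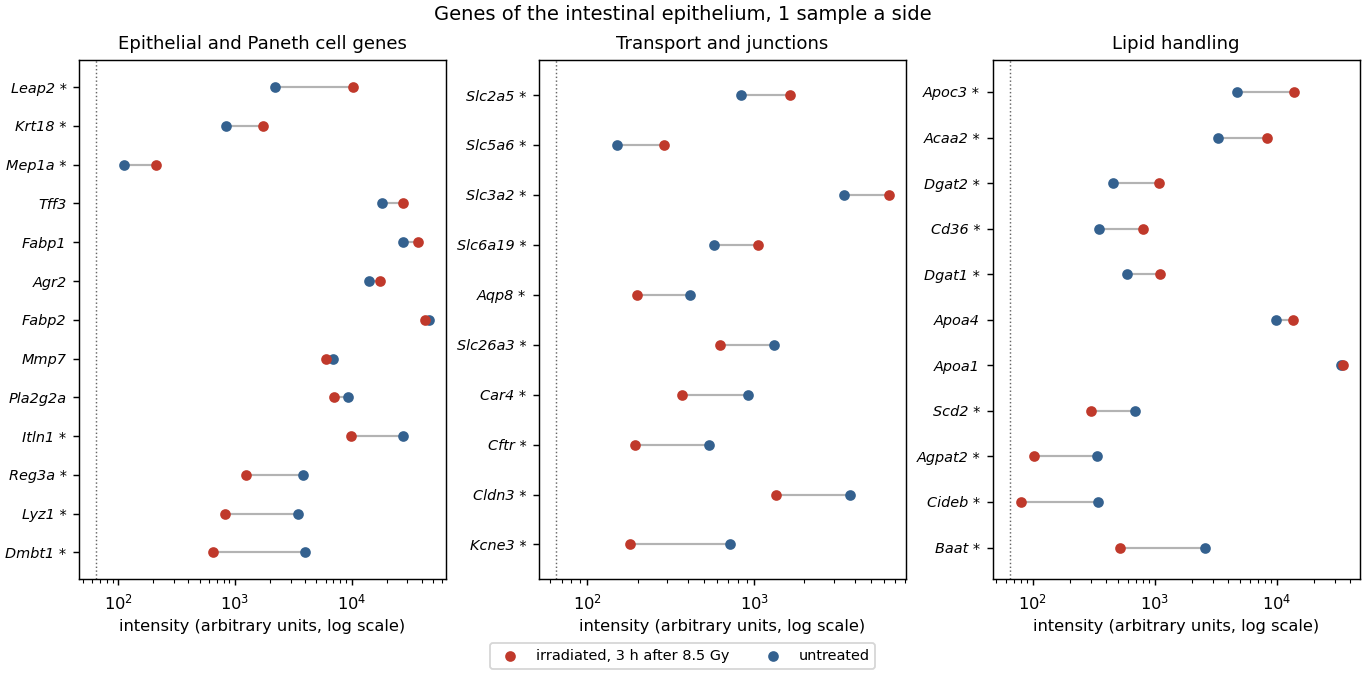
Intensity (log scale, horizontal axes) of chosen genes of the epithelium, transport and junctions, and lipid handling in the irradiated (red) and untreated (blue) intestine, 1 sample a side, with asterisks at genes past 1.8-fold and a dotted line at the untreated median. Of the carriers past the threshold, which alone are drawn, Slc2a5, Slc5a6, Slc3a2 and Slc6a19 were higher and Kcne3, Cftr, Slc26a3 and Aqp8 lower, and Fabp2 and Apoa1 barely differ.

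Enzymes that handle foreign compounds followed no single direction. Of 59 genes of oxidation, 4 were higher and 5 lower, against 1.72% and 2.79% of all genes, with a median of 0.15. Higher were the epoxide hydrolase Ephx1 (288.5 and 105, 2.75-fold), Cyp2d22 (2.32-fold), Cyp3a13 (4291 and 1954.5, 2.20-fold) and the xenobiotic receptor Nr1i2, which controls many of them (387 and 179, 2.16-fold). Lower were Cyp2s1 (131 and 430, 3.28-fold), Aldh1b1 (1316 and 4280, 3.25-fold) and the monoamine oxidase Maob (168 and 536.5, 3.19-fold). Of 28 antioxidant enzymes 2 were lower, the thioredoxin reductase Txnrd1 (749 and 2522.5, 3.37-fold) and the glutathione peroxidase Gpx1 (343.5 and 946, 2.75-fold), and none was higher.

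Lymphocyte genes were lower where they were called. Of 21 B cell genes none was higher and 4 lower, against 1.72% and 2.79% of all genes, with a median of -0.24. Their summed intensity was 1975 in the irradiated and 2723 in the untreated intestine. Cd79b was given above, its partner Cd79a had 111.5 and 190.5, within the threshold, and the germinal centre repressor Bcl6 had 117 and 227.5 (1.94-fold lower, lost with 50 added). The BAFF receptor gene Tnfrsf13c (41.5 and 83.5) and the IgM receptor gene Fcmr (50 and 100) are close to the floor. Of 9 plasma cell genes none was higher and 2 lower, with a median of -0.10 and 3 genes above 0. The joining chain of secreted antibody Jchain had 4799 and 11314 (2.36-fold lower) and the chaperone gene Mzb1 had 108.5 and 400 (3.69-fold lower). The list summed to 6974 and 14174, and most of both sums was Jchain. Among 35 T cell genes, none was higher and 2 lower, the chemokine gene Ccl5 of intraepithelial lymphocytes (281 and 917.5, 3.27-fold) and Cd3d (100 and 204.5, 2.04-fold, lost with 50 added), while the granzyme genes Gzma (601 and 425.5) and Gzmb (507 and 688) went opposite ways within the threshold. Cd74, the invariant chain of class II molecules in B cells and other presenting cells, had 418 and 1952 (4.67-fold lower). Macrophage and dendritic genes gave 3 calls each way among 31, with the protease Ctss at 3013 and 1298.5 (2.32-fold higher) and the F4/80 gene Adgre1 at 113 and 232.5 (2.06-fold lower, lost with 50 added).

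Of 35 interferon-induced genes measured, 4 were higher and none lower, against 1.72% and 2.79% of all genes. Of the 35, 26 lay above 0, and the median was 0.33. Ifit1, an RNA-binding antiviral protein, had 647 in the irradiated and 215.5 in the untreated intestine (3.00-fold higher). Trim25, a ubiquitin ligase of RNA sensing, had 1133 and 451 (2.51-fold higher), Rtp4 had 146 and 70 (2.09-fold higher), and Isg15, a ubiquitin-like modifier, had 261.75 and 130 (2.01-fold higher). The calls of Rtp4 and Isg15 were lost with 50 added. Below the threshold but on the same side were Igtp (331 and 201.5), Oas2 (165 and 102), Stat2 (120 and 74.5), Bst2 (251.5 and 170) and Irf7 (605 and 422.5), whereas Irgm1 (123 and 173) and Irf9 (74.5 and 101) lay on the other. The core of the interferon-stimulated response element, TTTCNNTTTC on either strand, was present in 13 of 25 of these genes with a window (52.0%), against 3.21% of all measured genes, 9 of 225 higher genes and 6 of 370 lower genes. It is shown for the pair of called genes that hold it, with matches in capitals, at chr4:156200850-156200921 on the minus strand for Isg15 and chr19:34640760-34640838 on the plus strand for Ifit1. The matches of Isg15 overlap one another and read in the opposite direction.
Isg15: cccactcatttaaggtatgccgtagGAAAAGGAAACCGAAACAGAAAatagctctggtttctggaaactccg
Ifit1: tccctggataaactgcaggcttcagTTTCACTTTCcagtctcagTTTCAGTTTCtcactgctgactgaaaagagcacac

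The transgene of these mice reports NF-κB. Of 45 genes of that pathway, 2 were higher and 3 lower, against 1.72% and 2.79% of all genes, with a median of 0.07. The acute phase gene Saa3 was higher (180.75 and 82.5, 2.19-fold, lost with 50 added), with Lcn2 given above. The chemokine gene Ccl20 was lower (121 and 327.5, 2.71-fold), and so were the kinase gene Chuk (83.5 and 180.5, 2.16-fold) and the subunit gene Nfkb1 (79 and 154, 1.95-fold), both lost with 50 added. The inhibitor gene Nfkbia, itself an NF-κB target, had 2115.5 and 1218, just within the threshold. The cytokine genes Tnf (68.5 and 71), Il1b (79 and 73) and Il6 (51.5 and 50) were near the median of the array in both samples. On a list of 83 cytokine and receptor genes that leaves out Ccl20 and Cxcl13, only Ccl5 was called. Of 15 genes of lymphoid stroma and chemokines, none was higher and 3 lower, with a median of -0.13. Besides Ccl20 these were Cxcl13 (61 and 149) and Glycam1 (43.5 and 94.5), both dim and lost with 50 added. Of the immediate early genes, Ier3 was higher (364 and 155.5, 2.34-fold) and Zfp36, whose protein speeds mRNA decay, was lower (208 and 663.5, 3.19-fold). Of 32 Notch pathway genes, the ligand Jag1 was the only call, at 247.5 and 95 (2.61-fold higher). The receptors Notch1 (99 and 93.5), Notch2 (48 and 48), Notch3 (72 and 59) and Notch4 (means of 73.7 and 66.8), the ligands Jag2 (50 and 47), Dll1 (59 and 62), Dll3 (100 and 92.5) and Dll4 (means of 60.8 and 57.4), and the targets Hes1 (74.5 and 78), Hes5 (75.5 and 71), Hey1 (58 and 54), Hey2 (63 and 68.5), Heyl (58 and 51.5) and Nrarp (124.5 and 118) were dim and within the threshold.

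Housekeeping machinery held more lower than higher genes, but with medians close to 0. All genes together gave 1.72% higher and 2.79% lower. Of 64 genes of oxidative phosphorylation, 1 was higher and 10 lower, with a median of -0.10, and 62 of them were at or above the median in both samples, where calls are more frequent. The respiratory chain subunit gene Cox5a had 1231.5 in the irradiated and 6089 in the untreated intestine (4.94-fold lower), and the ATP synthase genes Atp5j (1720 and 5855.5, 3.40-fold) and Atp5b (3857.5 and 12124, 3.14-fold) were lower. Other subunits of the same complexes were within the threshold, such as Cox4i1 (17984 and 16319), Cox7b (14077 and 11750), Atp5g3 (21539 and 12750) and Atp5e (9769 and 7898). In the secretory pathway, 2 of 75 genes were higher and 10 lower, with a median of -0.04, among them the oligosaccharyltransferase gene Ostc (236.5 and 716.5, 3.03-fold lower), Alg5 (327.5 and 927.5, 2.83-fold lower) and the coatomer gene Copb1 (943 and 2257, 2.39-fold lower), while its partner Copb2 was higher (2362.5 and 1128.5, 2.09-fold). Of 116 ribosomal proteins and translation factors listed, only 57 were measured, with 15 of 46 large and 7 of 33 small subunit proteins. These 57 gave 6 lower genes and no higher one, with a median of -0.13, and 4 of the 6 were translation factors. The lower genes were led by Eif4a1 (479.5 and 1844.5, 3.85-fold lower) and Eif3h (293 and 1029, 3.51-fold lower). Of 25 genes of iron handling 1 was higher and 5 lower, with a median of -0.18, and Aco1, the iron regulatory protein that is also an aconitase, had 105 and 421.5 (4.01-fold lower).

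Of 11 hepatocyte genes on the list of neighbouring tissues, 8 were lower and none higher, with a median of -0.93 and summed intensities of 2628.5 in the irradiated and 6449 in the untreated intestine. Besides Alb these were the fibrinogen chains Fgb (159 and 622, 3.91-fold) and Fgg (80 and 253, 3.16-fold), Ambp (92.5 and 282, 3.05-fold), haptoglobin Hp (159 and 446, 2.81-fold), Serpinc1 (78 and 149, 1.91-fold), Ttr (115 and 218, 1.90-fold) and Cyp2e1 (109.5 and 204.5, 1.87-fold). Of 14 pancreatic genes, the protease Ctrb1 was lower (315.5 and 1193.5, 3.78-fold) and none was higher, and the colipase gene Clps had 2037 and 1710.5. Of 6 fat genes, 2 were higher, the adipsin gene Cfd (281 and 141.5, 1.99-fold) and Cidec (308.5 and 160.5, 1.92-fold). Smooth muscle genes gave no call among 19, with a median of 0.07, and enteric neurons and glia none among 23.

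Genes that lead in an organ were also taken from the array itself. They lie at or above the 98th percentile there and below the 50th in another organ. No limit was set in the intestine for the liver and brain groups, so some of their members are bright in it. Fabp2, of the liver group, had 46247 in untreated intestine and 2462.5 in untreated liver. Ckb, of the brain group, had 4105 in irradiated and 1711.5 in untreated intestine, against 3737 in untreated brain. Of 79 genes that lead in liver and were low in brain, 3 were higher and 10 lower in the intestine, with a median of -0.21. Of 43 that lead in brain and were low in liver, 2 were higher and none lower, with a median of 0.11. Of 32 that lead in intestine and were low in both others, 2 were higher and 4 lower, with a median of 0.24. The lower genes of this last group were Itln1, Jchain, the linker histone H1f10 (1261 and 3457, 2.74-fold) and the galectin Lgals2 (5059.5 and 9846, 1.95-fold), and the higher ones were Ms4a10 (3474 and 1746, 1.99-fold) and a probe named Pap, a symbol shared as a synonym by Reg3b and Papola (36677 and 14384, 2.55-fold). These 4 genes outside the lists were named after their values were seen. Without the 79 genes that lead in liver, 282 genes were higher and 453 lower. The part of liver RNA in any other difference was not tested.

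**Figure D5:**
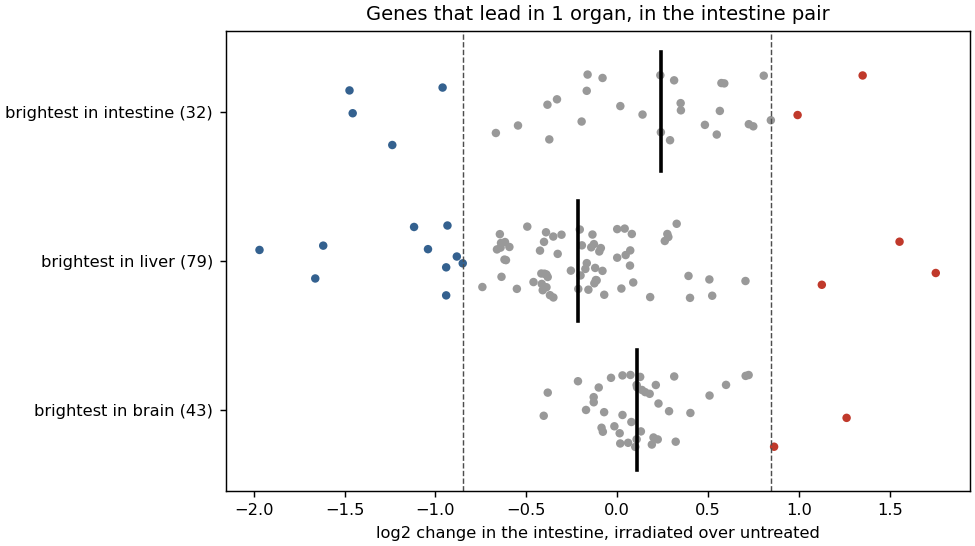
Log2 change in the intestine (irradiated over untreated) of genes that lead in intestine (32), liver (79) or brain (43), 1 point a gene, with red points higher and blue points lower by 1.8-fold or more, black bars at medians and dashed lines at 1.8-fold. Medians are 0.24, -0.21 and 0.11, and 10 of the liver genes lie beyond the lower line. The liver and brain groups have no upper limit in the intestine.

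The p53 targets can be set beside the other organs, whose pairs are separate samples and where the background was 1.51% higher and 2.53% lower of 16118 genes in liver and 0.447% higher and 0.919% lower of 15662 genes in brain. Mdm2 had 871 in the irradiated and 353.5 in the untreated liver (2.46-fold higher), and 1132 and 546 in brain (2.07-fold higher). Ccng1 was 3.72-fold higher in liver (means of 348 and 93.5) and within the threshold in brain (356 and 222). Cdkn1a was within it in liver (167 and 98.6) and 1.81-fold higher in brain (272 and 150). Perp had 997 and 766.5 in liver and 170 and 120 in brain, and Btg2 had 517 and 337.5 in liver and 428.5 and 312.5 in brain, so neither was called outside the intestine. Trp53inp1, within the threshold in the intestine (97 and 112.5), was higher in liver (439 and 230) and brain (193 and 91.5). Phlda3 was higher in brain (367.5 and 164) and within the threshold in liver. Cdkn2a passed it upward in liver at dim values (57.5 and 31). Gadd45g was lower in liver (82.5 and 173) and brain (119 and 221), and Sfn and Plk3 were lower in liver. Gadd45a had 183 and 165.5 in brain and no value in liver. Differences between organs were not tested.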

How the data were processed

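Total RNA of irradiated and untreated intestine, 1 sample each, was measured on a single-colour mouse array. The deposited intensity values were made by the authors, who took the local background off each spot, dropped controls and spots of low signal-to-noise ratio, and normalized in R (the sample labels name limma). Ranked, the 2 intestine columns hold almost equal values. All values are multiples of 0.25. From these the log2 ratio of irradiated to untreated was taken per probe with nothing added. Platform symbols were updated through a mouse annotation (17558 kept, 3410 updated, 52 not held), and a gene is the mean of its probes, with geometric means as its intensities. Genes past 1.8-fold were called.

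The genes named are the 12 largest each way at or above the median in both samples with all probes on one side of 0, genes with 2 or more probes all past the threshold, up to 6 called members of each of 57 lists, every p53 target and Notch receptor, ligand and target, and the 4 brightest members of cell type lists; a few others are marked as chosen later or serve as neighbours. The members and lists were chosen with earlier results of these data known. The number of arrays limits the precision. The calculation was checked on simulated data with planted changes, which gives no rate of false calls in the real pair. Python 3.11.15 with pandas 2.3.3 and statsmodels was used. Alternatives were other scalings, filters, thresholds, a pseudocount of 50, the brightest probe and symbols as given.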

Additional observations from a re-analysis of the deposited data

Results flagged for a closer look

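Of the named genes, 6 were past 1.8-fold in the intestine and past it the other way in another organ. These differences between organs were not tested. Shared and opposite calls were also counted over all genes. The background was 1.51% higher and 2.53% lower in liver, and 0.447% higher and 0.919% lower in brain. For the 285 genes called higher, liver shared the call at 27 and opposed it at 6. Brain shared it at 6 and opposed it at 1. For the 463 called lower, liver shared 64 and opposed 10, and brain shared 32 and opposed 5. Slc10a7 had a log2 change of -2.87 in the intestine and 1.67 in liver, and it was lower in brain as well (-1.52). Daam2 had -2.70 in the intestine and 1.21 in liver, and it too was lower in brain (-1.20). The plasma cell gene Mzb1 had -1.88 in the intestine, and was dim in liver, at 90 in the irradiated and 47.5 in the untreated sample. Itln1 had -1.47 in the intestine, and stood at 81.5 in irradiated and 45 in untreated liver. The interferon-induced gene Ifit1 had 1.59 in the intestine, and stood at 52.5 in irradiated and 103 in untreated liver. In these 3 genes 1 of the liver values lies below the median of its sample, so no fold is given there. Maob had -1.68 in the intestine and 1.24 in brain. Each was read by 1 probe in 1 sample a side.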

How the results depend on the processing

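No named gene changed sign under any alternative where it was past 1.8-fold. With 50 added to both intensities, 291 probes were higher and 514 lower, 164 genes were higher and 290 lower, 5 p53 targets of arrest and feedback and 1 of cell death were higher, and 41 of 181 called named genes fell within the threshold. At 2-fold, 292 probes and 159 genes were higher. At 1.5-fold, 1382 probes were higher and 1565 lower, and 832 genes were higher and 907 lower. Counting only genes with 2 or more probes all past the threshold, a setting chosen after the data were seen, left 5 higher and 1 lower. Quantile normalization lost 8 named calls, removing the intensity trend 6 and median-centring 2, and the filters on dim probes, the brightest probe and the symbols as given none among the genes they measured. The thresholds of 2-fold and 1.5-fold were applied to counts alone, and at 2-fold 6 p53 targets of arrest and feedback were higher. The counts of probes, genes and p53 targets under the other alternatives stayed within 1.5 times the reported ones. The median of a list moved by over 0.1 for 11 of 57 lists with only probes at or above the median, 4 with quantile normalization, 4 with the brightest probe, 3 with 50 added and 2 without the dimmest probes. No paired analysis was possible because each group has 1 sample. Without replicates the spread between animals is unknown, and single-probe calls, which are most of them, have no second reading.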
